A study of Mus musculus with 6 samples.

Results

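Integrins and laminins are the receptors and the matrix proteins through which neuroepithelial cells hold on to their basement membrane. The genes described here were those whose symbols name an integrin alpha subunit, an integrin beta subunit or a laminin chain in the count files (Itga or Itgb with a number, Itga2b, Itgav, and Lama, Lamb or Lamc with a number). The rule found 32 of 55471 genes, of which 13 encode integrin alpha subunits, 8 integrin beta subunits and 11 laminin chains. The rule itself did not use any measured value, but these families were chosen with earlier results of these data known.

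RNA was sequenced from mouse embryos at E11.5 (counted in embryonic days), from the rostral end of the primordium of the telencephalon, in 3 control and 3 Rx-Dicer samples. Control embryos were DicerF/F, that is, they carried floxed Dicer alleles and no Cre, and their genotype field reads WT. Rx-Dicer embryos were RxCre-DicerF/F and carried in addition a Cre recombinase under regulatory sequences of Rax (Rx), a transcription factor of the anterior neural plate. All samples thus shared the floxed alleles, the age and the region, and differed in the presence of Cre, which came from mice on a CD1 background while the floxed mice were kept on C57BL/6. The study maps recombination by this Cre at this age as strongest in rostral and ventral telencephalon and weak in neocortex, so the dissected tissue may hold cells that kept Dicer. The labels do not give whether a library holds 1 embryo or several, so the p-values below measure the spread between these samples, which may in part be technical.

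Dicer cuts hairpin precursors into mature miRNAs, which lower the translation and stability of mRNAs that hold words complementary to their seed. An integrin is a dimer of an alpha and a beta subunit in the plasma membrane, and the pair determines which matrix protein is bound. A laminin is a cross-shaped trimer of an alpha, a beta and a gamma chain that polymerises into the sheet on which basement membranes are built. In the embryonic telencephalon the basal processes of radial glia end on the pial basement membrane, where laminin-binding integrins and dystroglycan anchor them.

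The libraries held 34471501 to 48373468 counts on genes, and between 0.0892 and 0.126% of these fell on the 32 genes. Dicer1, the targeted gene, had 6355, 7070 and 6270 normalised counts (counts divided by the library's DESeq2 size factor) in control samples 1 to 3 and 4777, 7002 and 4644 in Rx-Dicer samples 1 to 3. The library labelled Rx-Dicer 2 had a value like the controls and the other Rx-Dicer libraries lay below, with a log2 fold change of -0.26 ± 0.17 (SE) at a DESeq2 adjusted p of 0.567. Without Rx-Dicer 2 the log2 fold change of Dicer1 was -0.47, with a DESeq2 adjusted p of 8.81e-04. Reads outside the deleted exons are counted too, so this total checks the labels only in part. Below, Itgb8, Itga2, Itgb1 and Itgav are also given without Rx-Dicer 2. Called partner genes that lost their call without Rx-Dicer 2 are marked. The labelled tissue was checked against 9 markers of telencephalic progenitors. No gene of the 9 was at 0, their summed level was 3873 to 4214 CPM (a gene's counts scaled to a common library total) in controls and 3708 to 4189 CPM in Rx-Dicer samples, and 2 of them passed the test, Six3 upwards (log2 fold change 1.27) and Pax6 downwards (-0.43).

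The comparison asked which integrin and laminin genes differ between control and Rx-Dicer tissue. Itgb8 and Itga2 were higher in Rx-Dicer samples and no integrin or laminin gene was lower. Itgb8 encodes the partner of the alpha v subunit in a receptor for latent TGF-beta, and rose 1.49-fold. Itga2 encodes the alpha subunit of a collagen and laminin receptor, and rose 1.71-fold. A gene passed at a Benjamini-Hochberg adjusted p under 0.05 over all genes in the DESeq2 Wald test and a log2 fold change beyond 0.32 in either direction. An adjusted p was obtained for 29 of the 32 genes, so the 2 that rose were 6.90% of those tested, against 1.75% of all genes tested that were called higher, 1.18% called lower and 2.93% called in either direction. With so few calls among the members this share rests on 2 genes. By edgeR's quasi-likelihood test 0 of the 32 genes passed, with a lowest adjusted p of 0.144 for Itgb8, while of the 31 genes that reached 10 counts in 3 or more samples 6 had an unadjusted p under 0.05 in edgeR, against 12.9% of all such genes, and 5 in DESeq2, against 12.5%. Over all genes edgeR called 8 (0.0446%).

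At least 10 counts in at least 3 samples were found for 31 of the 32 genes, all but Itgb6. The log2 fold changes of these 31 genes ran from -0.88 to 0.77 with a median of 0.13, against a median of 0.00079 over all 17954 genes with that count minimum. Of the 31, 23 had a log2 fold change above 0, where 50.2% of all genes did. In 7 of the 31 genes (22.6%) all Rx-Dicer samples lay above all control samples, against 8.48% of all genes, and in 0 all lay below, against 10.4% of all genes (18.9% in either direction). The 7 were Itga2, Itga6, Itgav, Itgb1, Itgb2, Itgb8 and Lamc1. Genes of a family share cells and reads of the same libraries, so these counts describe the list and carry no test. The median deviation of the 31 genes from the control mean was 0.04, -0.12 and 0.10 on the log2 scale in control samples 1 to 3 and 0.25, 0.22 and 0.06 in Rx-Dicer samples 1 to 3, so Rx-Dicer 3 lay within the range of the controls.

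**Figure D1:**
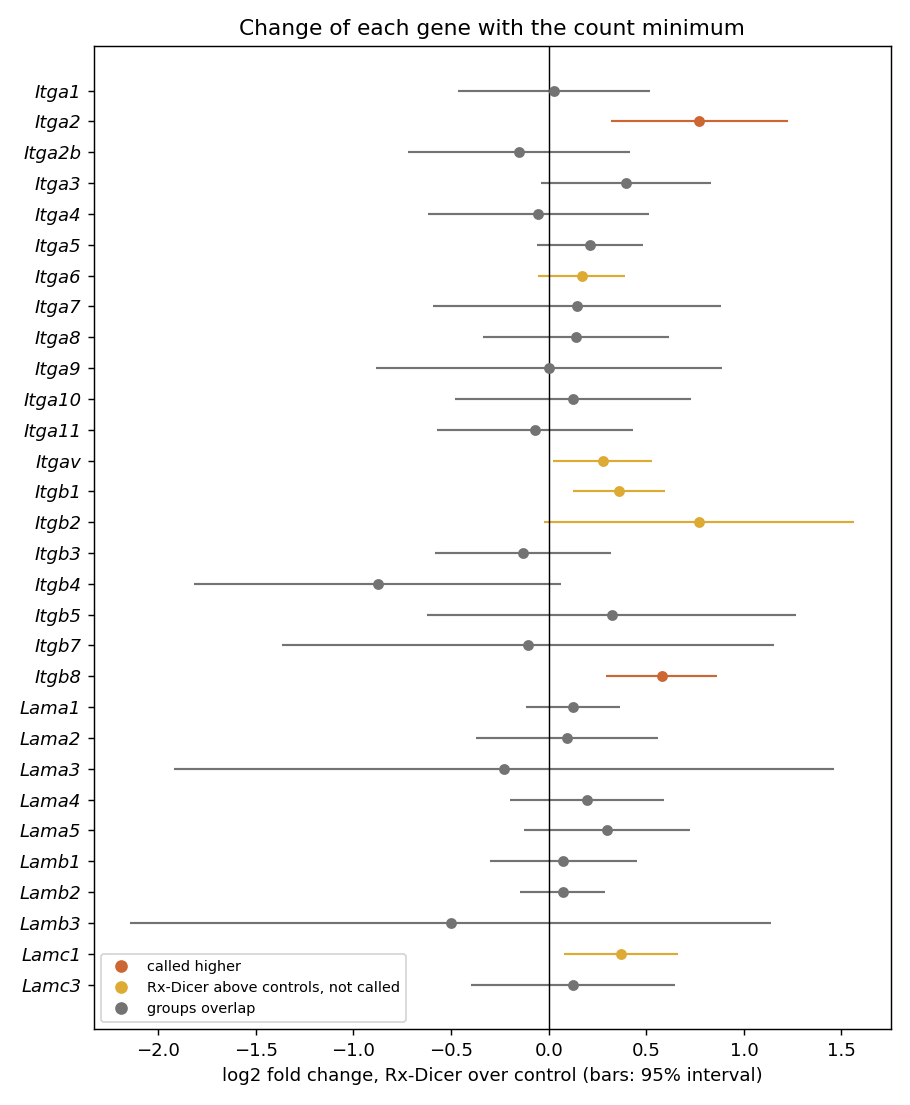
Log2 fold change of Rx-Dicer over control for integrin and laminin genes with the count minimum, with 95% intervals from DESeq2. Itgb8 and Itga2 were called higher (orange), Itga6, Itgav, Itgb1, Itgb2 and Lamc1 had all Rx-Dicer samples above all controls without a call (yellow), and the groups of the other genes shown overlapped (grey).

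Itgb8 (ENSMUSG00000025321, GRCm38 chromosome 12, 119158022 to 119238802, minus strand) had 1638, 1770 and 1815 normalised counts in control samples 1 to 3 and 2424, 3065 and 2314 in Rx-Dicer samples 1 to 3. Every Rx-Dicer value lay well above the controls, which were close together, and Rx-Dicer 2, the library with Dicer1 at the control level, was the highest. The means were 1741 ± 92.0 and 2601 ± 405 (SD, n = 3 each), which gave a log2 fold change of 0.58 ± 0.14 (SE) at a DESeq2 adjusted p of 0.00601. Without Rx-Dicer 2 the log2 fold change of Itgb8 was 0.45, with a DESeq2 adjusted p of 0.00349. Itgb8 has 11060 bases of annotated exon, and its longest transcript has a GC content of 40.4%. It is thus longer and lower in GC than the medians of 7368 bases and 53.0% of these genes. A correction of each sample for gene length and GC content brought its log2 fold change to 0.37 with a DESeq2 adjusted p of 0.126, so the call was lost there. Over all 15 alternative settings its adjusted p ran from 0.00295 to 0.198, and 3 of them lost the call.

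Itga2 (ENSMUSG00000015533, chromosome 13, 114833081 to 114932100, minus strand) had 243, 158 and 163 normalised counts in control samples 1 to 3 and 363, 324 and 272 in Rx-Dicer samples 1 to 3. The lowest Rx-Dicer value stood a little above control 1, and the other controls lay far lower. The log2 fold change was 0.77 ± 0.23 (SE) and the DESeq2 adjusted p 0.0366. The call of Itga2 was lost in 9 of 15 alternative settings, among them those without Rx-Dicer 1 (DESeq2 adjusted p 0.166), Rx-Dicer 2 (0.119), control 2 (0.271) or control 3 (0.209), and with the length and GC correction (log2 fold change 0.66, adjusted p 0.0956). Its direction was upwards in all 15, with adjusted p from 7.36e-04 to 0.271.

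Itgb1 (ENSMUSG00000025809, chromosome 8, 128685654 to 128733200, plus strand) encodes the beta subunit shared by most laminin, collagen and fibronectin receptors. It had 11080, 9503 and 10478 normalised counts in controls and 14144, 12016 and 13715 in Rx-Dicer samples. The groups did not overlap, and the log2 fold change was 0.36 ± 0.12 (SE) at a DESeq2 adjusted p of 0.0792, so Itgb1 missed the threshold. It passed at an adjusted p under 0.1, a rule under which 4.32% of all genes were called, after a filter on low counts (DESeq2 adjusted p 0.0334), and without Rx-Dicer 2 (log2 fold change 0.43, adjusted p 0.00705) or without control 1 (0.41, adjusted p 0.0413). In the other 11 of 15 alternatives it did not pass, with an adjusted p of up to 0.340.

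**Figure D2:**
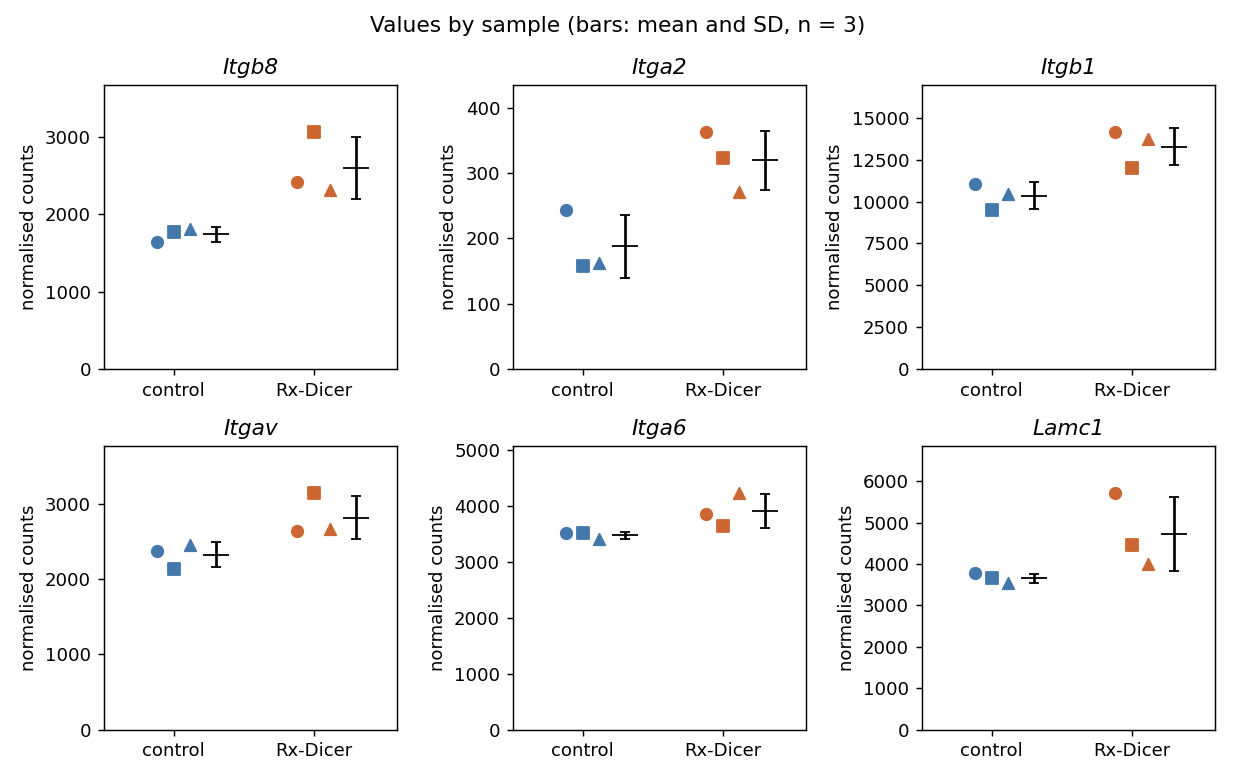
Normalised counts of 6 genes in each of the 3 control (blue) and 3 Rx-Dicer (orange) samples, with circles, squares and triangles for replicates 1, 2 and 3 and a bar for the mean and SD of each group. In these genes, chosen from the 7 without overlap, every orange point lies above every blue point, from a narrow gap in Itga6 (3645 against 3523) to a wide one in Itgb8 (2314 against 1815).

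The sequences below show which integrin and laminin transcripts hold words complementary to the seeds of miRNAs known from embryonic neural tissue or as regulators of matrix genes. The mature miRNAs are from RefSeq (GRCm38.p6) and are printed with the seed, bases 2 to 8, in capitals. The let-7 seed was shared by 11 mature miRNAs in that table, the miR-17 seed by 7, the miR-92 seed by 6, the miR-29 seed by 3 and the miR-9 seed by miR-9-5p alone.
let-7a-5p: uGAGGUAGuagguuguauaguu
miR-9-5p: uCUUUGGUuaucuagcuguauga
miR-29a-3p: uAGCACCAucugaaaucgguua
miR-17-5p: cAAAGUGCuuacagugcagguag
miR-92a-3p: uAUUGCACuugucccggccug

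The word searched for each seed was its complement followed by A, on the transcript strand of the longest 3′ UTR annotated for each gene, in 14339 genes with the count minimum, 31 of them integrin and laminin genes. CTACCTCA (let-7) was held by 3.77% of all genes searched and by Itga2. ACCAAAGA (miR-9) was held by 4.71% of all genes and by Itga1, Itga2 and Itga4. TGGTGCTA (miR-29) was held by 3.38% of all genes and by Lamc1, GCACTTTA (miR-17) by 4.46% and by Itga4, Itgb8 and Lama3, and GTGCAATA (miR-92) by 2.83% and by Itga5, Itga8 and Itgav. The windows of 5 of the genes described by sample are shown in transcript orientation with the word in capitals, since 2 of these genes rose and the others stood without overlap or among the most expressed.
Itgb8, miR-17, chr12:119162887-119162916, minus strand: ctagtgttgtaGCACTTTAttgtaatatat
Itga2, let-7, chr13:114834242-114834271, minus strand: gagagaaagggCTACCTCAcaccttgcaag
Itga2, miR-9, chr13:114836299-114836328, minus strand: ggggtagaaagACCAAAGAcatcatataga
Itgav, miR-92, chr2:83806404-83806433, plus strand: attgttcttaaGTGCAATAtaacaatgtaa
Lamc1, miR-29, chr1:153220057-153220086, minus strand: atctgacacacTGGTGCTAttaattatttg
Itga5, miR-92, chr15:103344304-103344333, minus strand: ctctgttgcaaGTGCAATAaaccccaccca

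Long UTRs hold any word more often, so each match was read against genes whose 3′ UTR was at most 20% shorter or 25% longer. The miR-17 word was found in 14.6% of 847 such genes for Itgb8, whose UTR has 5095 bases. For Itga2, with 3404 bases, the let-7 word was found in 6.94% and the miR-9 word in 9.70% of 1773 such genes. The miR-92 word was found in 5.71% of such genes for Itgav and in 2.19% for Itga5, and the miR-29 word in 5.82% for Lamc1. A word in a UTR is a description of the sequence, and neither binding nor repression was measured. In small RNA libraries of the same region and age, the study found few mature miRNAs significantly reduced, most of them let-7. By in situ stains at a later age it also found less miR-9. Levels of the miRNAs were not examined here. Itga1, Itga4 and Itga8 hold words too and had log2 fold changes of 0.03, -0.05 and 0.14 with overlapping groups. Itgb1 holds none of the words and did not overlap between groups.

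Among the alpha subunits, levels per exon length were compared in TPM (counts divided by annotated exon length and scaled to a common total in each library). Itga6, a laminin receptor subunit of neural progenitors, had the highest mean level of the 13 alpha genes over the 6 samples, 25.3 TPM, before Itga5 at 21.9 TPM and Itgav at 14.9 TPM. Together the 13 genes reached 90.1 ± 9.57 TPM in controls and 103 ± 16.1 TPM in Rx-Dicer samples (SD, n = 3 each). Itga6 made up 26.4 ± 2.30% of this sum in controls and 26.5 ± 3.50% in Rx-Dicer samples, and Itga5 22.2 ± 0.733% and 22.9 ± 1.38%. Itga2 stood far lower, at 1.81 ± 0.526% of the alpha level in controls and 2.72 ± 0.352% in Rx-Dicer samples.

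Itga6 had 3510, 3523 and 3409 normalised counts in controls and 3862, 3645 and 4234 in Rx-Dicer samples. All Rx-Dicer values were above the controls by a small margin, and the log2 fold change of 0.17 ± 0.11 (SE) did not pass (DESeq2 adjusted p 0.596). Its 95% interval ran from -0.05 to 0.39. Itgav, the alpha v subunit that pairs with the products of Itgb1, Itgb3, Itgb5, Itgb6 and Itgb8, had 2379, 2139 and 2458 normalised counts in controls and 2647, 3147 and 2664 in Rx-Dicer samples. As for Itgb8, the highest value was that of Rx-Dicer 2. The log2 fold change of Itgav was 0.28 ± 0.13 (SE) at a DESeq2 adjusted p of 0.304. Without Rx-Dicer 2 it was 0.20, with a DESeq2 adjusted p of 0.530. Itga5, the alpha subunit of the main fibronectin receptor, had 1601, 1482 and 1734 normalised counts in controls and 1853, 2085 and 1648 in Rx-Dicer samples. Its groups overlapped, since Rx-Dicer 3 lay below control 3 (log2 fold change 0.21 ± 0.14 (SE), DESeq2 adjusted p 0.581).

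**Figure D3:**
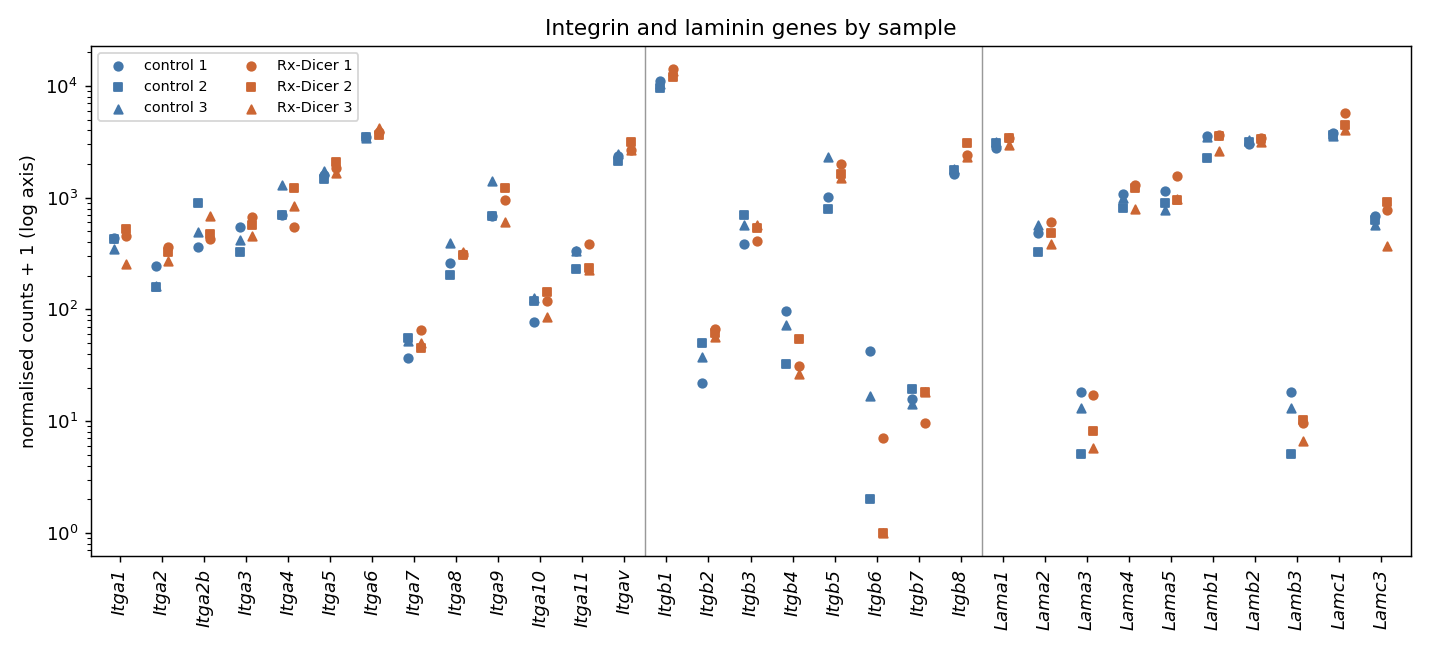
Normalised counts plus 1 on a log axis for integrin and laminin genes in each control (blue) and Rx-Dicer (orange) sample, with circles, squares and triangles for replicates 1, 2 and 3. Itgb1 was the most counted gene in every sample (9503 to 14144), and Itgb6, Lama3 and Lamb3 were among the least counted, with spreads over samples that span the groups.

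Among the beta subunits, Itgb1 made up 79.4 ± 5.48% of the summed TPM in controls and 79.6 ± 2.11% in Rx-Dicer samples. Itgb5 followed with 11.7 ± 5.87% and 11.8 ± 1.42%, and Itgb8 with 4.95 ± 0.565% and 5.80 ± 1.29%. The sum over the 8 beta genes was 196, 172 and 223 TPM in controls and 279, 258 and 228 TPM in Rx-Dicer samples, so the groups did not overlap, with a narrow gap between control 3 and Rx-Dicer 3. Itgb1 had the same level in controls 1 and 3 (164 TPM each), whose sums differed mostly by Itgb5 (17.2 and 41.2 TPM). In bulk tissue, fewer or more cells of a type and less or more RNA per cell cannot be told apart.

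Itgb5, a beta subunit that joins alpha v in a vitronectin receptor, had 1016, 797 and 2300 normalised counts in controls and 2019, 1627 and 1498 in Rx-Dicer samples. Control 3 was the highest of all, and the other controls were the lowest. The log2 fold change was 0.32 ± 0.48 (SE) at a DESeq2 adjusted p of 0.898, and without control 3 it was 0.92 with an adjusted p of 4.91e-04, so this library decides the value. Over the 15 alternatives the adjusted p ran from 4.91e-04 to 0.999. Itga4 and Itga9, the alpha subunits for fibronectin splice forms, VCAM and tenascin, were also highest in control 3, with 697, 696 and 1308 normalised counts in controls for Itga4 and 686, 682 and 1406 for Itga9. In Rx-Dicer samples 1 to 3 Itga4 had 543, 1218 and 847 normalised counts and Itga9 949, 1222 and 607. The 11 markers of head mesenchyme and meninges summed to 1314, 879 and 1978 CPM in controls and 1801, 1496 and 1368 CPM in Rx-Dicer samples, with none at 0 in all samples and 1, Foxd1, called higher. This list was thus also highest in control 3, and Itgb5 had the same order over all samples as the list. Among the Rx-Dicer samples the list was highest in Rx-Dicer 1, where Itga4 was lowest and Itga9 lay between the others. The part of these cells in the values of Itgb5, Itga4 and Itga9 was not tested.

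Itgb2, the beta subunit of leukocyte integrins, had 20.8, 48.9 and 36.6 normalised counts in controls and 65.2, 61.1 and 56.1 in Rx-Dicer samples. The groups did not overlap at these low counts, and the log2 fold change of 0.77 ± 0.41 (SE) did not pass (DESeq2 adjusted p 0.407). The 10 markers of microglia and macrophages summed to 49.0, 37.5 and 46.7 CPM in controls and 141, 47.8 and 85.8 CPM in Rx-Dicer samples, and 2 of the 10, Csf1r and Cx3cr1, rose. In this list control 1 lay above Rx-Dicer 2, so the groups overlapped, and the part of these cells in the Itgb2 values was not tested.

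Itga2b and Itgb3, which together form the fibrinogen receptor of platelets, shared a different order of samples. Itga2b had 364, 897 and 497 normalised counts in controls and 424, 474 and 685 in Rx-Dicer samples, and Itgb3 had 381, 704 and 572 in the controls and 411, 531 and 572 in Rx-Dicer samples. Control 2 was the highest library for both, and control 1 the lowest. The 7 platelet and megakaryocyte markers summed to 20.7, 35.2 and 26.4 CPM in controls and 22.8, 23.5 and 32.2 CPM in Rx-Dicer samples, again with control 2 highest and control 1 lowest, and 0 of the 7 passed the test. The part of these cells in the values of Itga2b and Itgb3 was not tested.

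Itgb4, the partner of alpha subunit Itga6 in hemidesmosomes of epithelia, had 96.5, 31.6 and 71.4 normalised counts in controls and 30.0, 53.0 and 25.7 in Rx-Dicer samples. Its log2 fold change of -0.88 was the lowest among the 31 genes with the count minimum, the groups overlapped, and the DESeq2 adjusted p was 0.441. Itgb6, an epithelial beta subunit, had 41.5, 1.02 and 16.0 normalised counts in controls and 6.00, 0 and 0 in Rx-Dicer samples, and received no adjusted p because of its low counts. Lama3 and Lamb3, chains of the epithelial laminin, had at most 17.1 normalised counts in any sample and likewise received none. All of these genes were highest in control 1, as were the 11 markers of surface epithelium, which summed to 84.4, 13.6 and 47.4 CPM in controls and 43.1, 20.1 and 22.7 CPM in Rx-Dicer samples, with 1, Krt15, called lower. Their part in these values was not tested.

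The laminin chains were dominated by 1 or 2 genes of each kind. Lama1, the main alpha chain of the early neuroepithelial basement membrane, made up 62.0 ± 4.89% of the summed TPM of the alpha chains in controls and 60.7 ± 4.30% in Rx-Dicer samples (SD, n = 3 each). Lama5, a broadly expressed alpha chain, had 16.5 ± 3.21% and 17.9 ± 3.40%, and Lama4, a chain of vessels and mesenchyme, 15.8 ± 1.98% and 16.0 ± 2.20%. Lama2 had 5.58 ± 1.40% and 5.29 ± 0.485%. Of the beta chains, Lamb2 had 62.5 ± 5.90% and 62.4 ± 3.35%, and Lamb1 37.3 ± 5.79% and 37.5 ± 3.33%. Lamc1, the gamma chain of nearly all laminin trimers, had 80.2 ± 1.15% of the gamma level in controls and 82.8 ± 5.01% in Rx-Dicer samples, and Lamc3 18.7 ± 0.942% and 15.9 ± 5.34%. For each of these chains the difference between the group means was smaller than the larger of its SDs, so no shift in the make-up of the chains stood out from the spread of 3 samples.

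**Figure D4:**
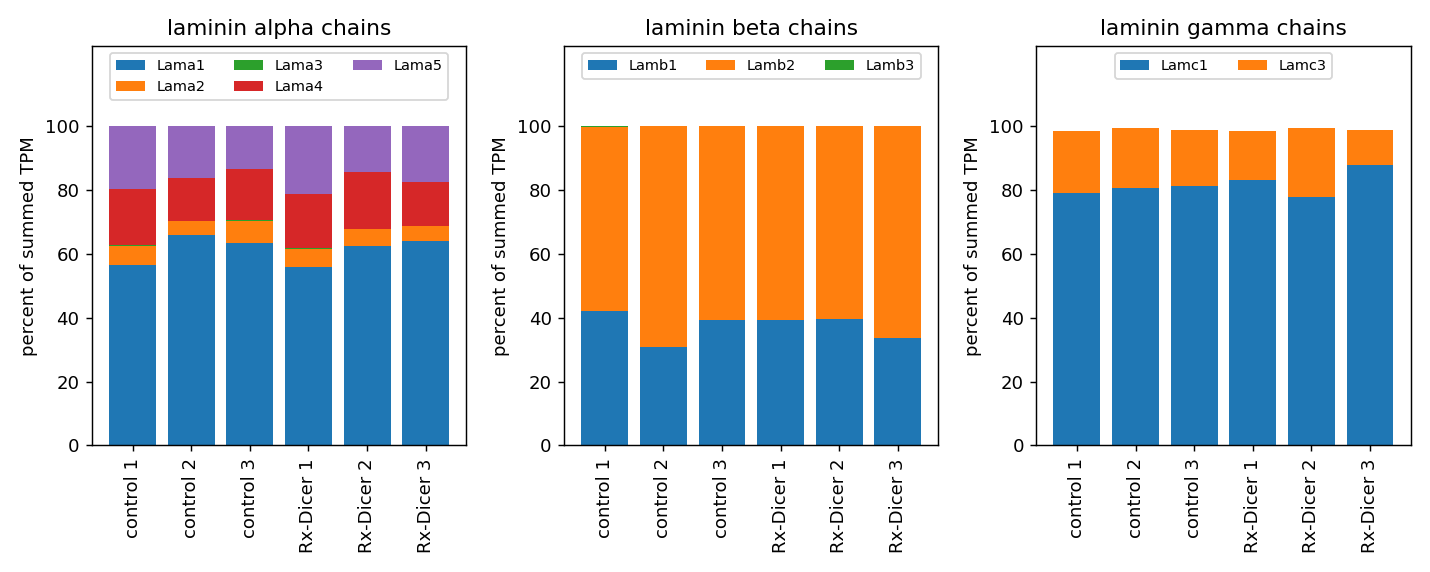
Share of each laminin gene in the summed TPM of the alpha, beta and gamma chains, as stacked bars of the genes shown for each of the 6 samples. Lama1 (55.8 to 66.0%), Lamb2 (57.7 to 69.0%) and Lamc1 (77.8 to 87.8%) were the largest share of their kind in every sample of both groups.

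Lamc1 (ENSMUSG00000026478, chromosome 1, 153218922 to 153332786, minus strand) had 3769, 3650 and 3551 normalised counts in controls and 5712, 4447 and 4007 in Rx-Dicer samples. It was the laminin gene whose groups did not overlap, and Rx-Dicer 1 stood far above the others. The log2 fold change was 0.37 ± 0.15 (SE) with a 95% interval of 0.08 to 0.66 and a DESeq2 adjusted p of 0.188, so it did not pass over all genes. Without Rx-Dicer 1 the log2 fold change was 0.21, with a DESeq2 adjusted p of 0.335, and over all 15 alternatives the adjusted p ran from 0.0627 to 0.503. Lama1 had 2782, 3111 and 3137 normalised counts in controls and 3444, 3434 and 2975 in Rx-Dicer samples, and Lamb2 2993, 3124 and 3296 in the controls and 3401, 3365 and 3136 in Rx-Dicer samples. Both overlapped between groups because of Rx-Dicer 3, with log2 fold changes of 0.13 ± 0.12 (SE) and 0.07 ± 0.11 (SE) and DESeq2 adjusted p of 0.795 and 0.900. The 95% interval for Lama1 was -0.12 to 0.37 and that for Lamb2 -0.14 to 0.29.

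Itga1, Lama4 and Lamc3 had their lowest values in Rx-Dicer 3. So did Itga9, Itga11 and Itgb4 (607, 226 and 25.7 normalised counts), and Itgb6 was at 0 there and in Rx-Dicer 2. Lama4 had 1079, 803 and 994 normalised counts in controls and 1291, 1215 and 785 in Rx-Dicer samples. Lamc3 had 689, 625 and 571 in the controls and 780, 908 and 367 in Rx-Dicer samples. Itga1, the alpha subunit of a collagen receptor, had 435, 429 and 346 in the controls and 450, 527 and 254 in Rx-Dicer samples. The 10 endothelial markers, of which none was at 0 and none passed the test, were also lowest in Rx-Dicer 3, at 116 CPM, against 251 and 270 CPM in the other Rx-Dicer samples and 195 to 202 CPM in controls. Their part in the values of these genes was not tested.

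Besides the genes given by rule with their full values, 20 genes had the count minimum, all with overlapping groups. Their log2 fold changes ran from -0.88 to 0.45, 12 of them above 0, and their DESeq2 adjusted p from 0.441 to 1.00, with none for Lama3 and Lamb3. Of the genes not yet mentioned, Itga3, a laminin receptor subunit, had the highest log2 fold change among the alpha subunits (0.40, DESeq2 adjusted p 0.462). Itga7, Itga10, Itga11 and Itgb7 had mean levels of 0.38, 1.34, 3.51 and 0.33 TPM and log2 fold changes of 0.15, 0.12, -0.07 and -0.11.

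The genes that work with integrins and laminins were examined as 5 lists, 119 genes in all. Of 116 with an adjusted p, 7 rose and 0 fell (6.03%, against 1.75% of all genes called higher). The lists were chosen with earlier results of these data known, and their genes share cells and libraries. This share thus describes the lists and carries no test. Among 22 genes of the basement membrane 3 rose, among 16 other integrin ligands 1, among 22 genes of the dystroglycan complex 3, and among 16 TGF-beta genes and 43 cytoplasmic proteins of integrin adhesions 0. By edgeR's quasi-likelihood test 0 of the 119 genes passed.

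In the basement membrane list, Col4a6, a chain of the collagen IV network, had 561, 457 and 378 normalised counts in controls and 948, 716 and 767 in Rx-Dicer samples, with no overlap (log2 fold change 0.80 ± 0.19 (SE), DESeq2 adjusted p 0.00280). Col18a1, whose product is a basement membrane proteoglycan, had 8191, 7859 and 6935 in the controls and 13349, 10708 and 9896 in Rx-Dicer samples (0.56 ± 0.14 (SE), DESeq2 adjusted p 0.00802). Hspg2, which encodes perlecan, had 4999, 5130 and 4890 in the controls and 8435, 6717 and 5817 in Rx-Dicer samples (0.48 ± 0.15 (SE), DESeq2 adjusted p 0.0446). In all of these genes every Rx-Dicer sample lay above every control, and Rx-Dicer 1 was the highest, as it was for Lamc1. The calls differed in stability, as that of Col4a6 was kept in 14 of 15 alternatives, that of Col18a1 in 12 and that of Hspg2 in 5. Leaving out Rx-Dicer 2 was among the settings that lost the call of Hspg2. The linkers and main chains of the same membrane had small differences that did not pass, with log2 fold changes of 0.13 for Nid1, -0.01 for Nid2, 0.06 for Agrn, 0.11 for Col4a1 and 0.13 for Col4a2.

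Of the dystroglycan list, Dag1, the laminin receptor itself, had a log2 fold change of -0.06 ± 0.11 (SE) with overlapping groups (DESeq2 adjusted p 0.920). Large2, a glycosyltransferase that builds the laminin-binding sugar chain of dystroglycan, had 536, 536 and 308 normalised counts in controls and 1013, 907 and 1397 in Rx-Dicer samples (log2 fold change 1.27 ± 0.23 (SE), DESeq2 adjusted p 1.97e-05). Dtna, which encodes a dystrobrevin on the cytoplasmic side, had 343, 494 and 575 in the controls and 703, 1127 and 762 in Rx-Dicer samples (0.87 ± 0.23 (SE), DESeq2 adjusted p 0.0112). The groups of both genes did not overlap. The call of Large2 was kept in 14 of 15 alternatives and that of Dtna in 10. Dtna was highest in Rx-Dicer 2, and without that library its call was lost.

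Of the other integrin ligands, Ccn2, a matricellular protein, had 436, 273 and 570 normalised counts in controls and 764, 712 and 689 in Rx-Dicer samples (0.76 ± 0.23 (SE), DESeq2 adjusted p 0.0428). Its call was kept in 7 of 15 alternatives and was lost without Rx-Dicer 2. Fn1, which encodes fibronectin, the ligand of the Itga5 receptor, had 12918 ± 708 and 16386 ± 1575 normalised counts (SD, n = 3 each) and did not pass (log2 fold change 0.34 ± 0.12 (SE), DESeq2 adjusted p 0.0948). The TGF-beta list holds cytokine genes together with genes of their latent form, receptors and signalling, and none passed the test. In it 6 of 16 genes had all Rx-Dicer samples above all controls (8.48% of all genes) and 1 had all below (10.4% of all genes). The 6 were Tgfb1, Tgfbr1, Tgfbr2, Smad2, Smad3 and Smad7. The groups of the other cytokine genes, Tgfb2 and Tgfb3, overlapped. The gene below was Smad4, with a log2 fold change of -0.03. In the other lists, all Rx-Dicer samples lay above all controls in 4 of 21 basement membrane genes with the count minimum. This held for 2 of 16 other ligands, 5 of 22 dystroglycan genes and 3 of 43 adhesion proteins. Among the adhesion proteins 2 had all below, and among the basement membrane, ligand and dystroglycan genes 0 did. These counts carry no test. All genes of the TGF-beta list were named after their values were seen.

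**Figure D5:**
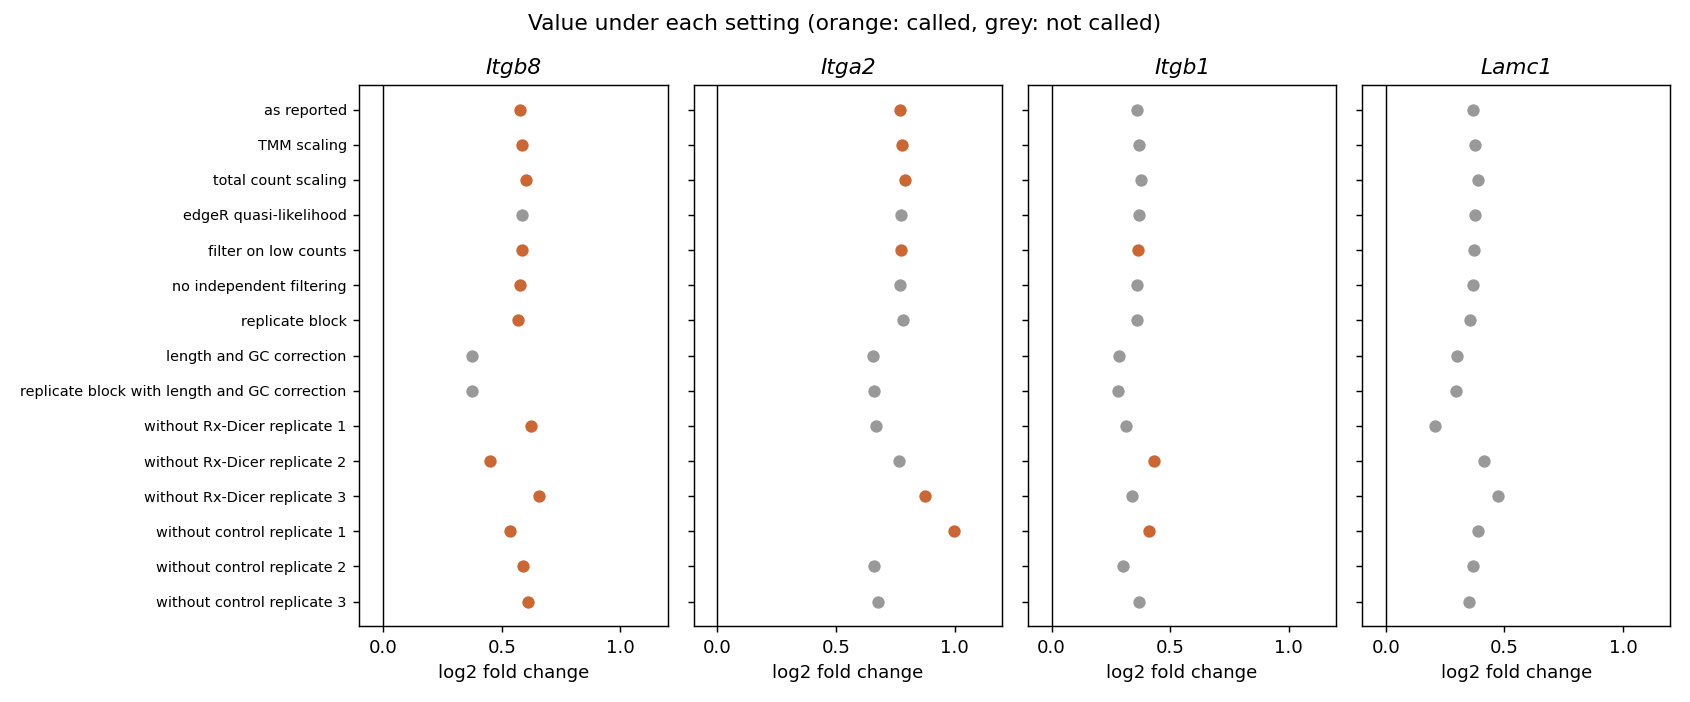
Log2 fold change of Itgb8, Itga2, Itgb1 and Lamc1 under the reported fit and 14 alternatives, with orange points where the gene was called at an adjusted p under 0.05 and a log2 fold change beyond 0.32, and grey points where it was not. All points lie to the right of 0, between 0.37 and 0.66 for Itgb8, 0.66 and 1.00 for Itga2, 0.28 and 0.43 for Itgb1 and 0.21 and 0.47 for Lamc1.

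Length and GC content were measured because the correction for both together moved the calls, and neither was corrected alone. The median annotated exon length of the integrin and laminin genes was 7368 bases, against 3842 over all genes with the count minimum and 4488 over protein-coding ones. Their median GC content, taken from the longest transcript of each gene, was 53.0%, against 49.6% over all genes. The median length of their 3′ UTRs, 1119 bases, was close to the 1204 bases of all genes searched. With the correction for length and GC content the median log2 fold change of the 31 genes was 0.08 and that of all genes -0.05.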

How the data were processed

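Raw counts per gene were deposited for 3 control and 3 Rx-Dicer libraries, 2 files each. Per the submitters' processing notes and the study's methods, the authors trimmed reads with Trim Galore 0.6.5, mapped them with HISAT2 to GRCm38.p6 and made the counts with HTSeq 0.12.4 (union mode, reverse strand, Ensembl genes). Reads on several genes or places were tallied apart, so near-identical copies are undercounted, and strand was used. Files of a sample differed by a chi-square per degree of freedom of 1.11 to 1.47, against 20.5 to 29.6 between samples of a group, and were summed as repeat runs. The 5 tally entries that name no gene (24.9 to 31.0% of a file's total) were left out.

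The main test was the Wald test of the study's tool, DESeq2 1.42.0 in R 4.3.3, on all genes, with median-of-ratios size factors, genotype as the only term and independent filtering. Genes were called at an adjusted p under 0.05 with a log2 fold change beyond 0.32. edgeR 4.0.16 (quasi-likelihood, TMM) was an alternative, as were other scalings, filters and thresholds, a replicate block, a spline correction for length and GC (5 degrees of freedom, pseudocount 0.5) and leaving out each sample. The scripts were tested on simulated data. Total counts of 34471501 to 48373468 put 3 counts at 0.062 to 0.087 CPM, a floor that covers counting error only. GENCODE M21 gave names, lengths and 3′ UTRs (the longest annotated per gene).

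Full values are given for members with an adjusted p under 0.1, members without overlap between groups, and the 3 highest by TPM per class. Partner genes are named where called. The members, the partner lists and the marker lists were chosen with earlier results of these data known. Some partner genes are named without a call (Nid1, Nid2, Agrn, Col4a1, Col4a2, Dag1, Fn1 and those of the TGF-beta list). These were chosen after their values were seen, as were the members grouped by the marker list they moved with. Promoters, protein sequences and small RNA libraries were not used here. Some genes are not reported here by name and are not drawn, and they stay in the counts, sums and ranges.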

Additional observations from a re-analysis of the deposited data

Results flagged for a closer look

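Reads aligned outside every annotated gene were used in none of the comparisons above. Their share was taken of the reads that were counted, fell in no gene or were ambiguous between genes. It was 9.88, 8.15 and 8.54% in control samples 1 to 3, and 9.04, 13.2 and 10.5% in Rx-Dicer samples 1 to 3. The Rx-Dicer median of 10.5% lay above the highest control, which is why the value is given, but Rx-Dicer 1 lay between the controls, so the groups overlapped. The highest share was in Rx-Dicer 2, the library with Dicer1 at the control level and the highest Itgb8 and Itgav values. Whether this share bears on the integrin and laminin values was not tested. Groups of 3 samples were not searched for outlying samples.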

How the results depend on the processing

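None of the 11 integrin and laminin genes given with fold change and SE changed direction under the 15 alternatives, which were not examined gene by gene for the other members. Itgb8 kept its call in 12 and Itga2 in 6, Itgb1 gained a call in 4 and Itgb5 in 1, and the other 7 genes stayed uncalled. edgeR called 8 genes (8 higher, 0 lower), with 0 integrin and laminin and 0 partner genes, although 2313 genes had an unadjusted p under 0.05. Without independent filtering 322 genes were called, 108 of them lower, and 1 member. An adjusted p under 0.1 called 308 lower. After the length and GC correction 194 genes were called higher and 0 members. Leaving out 1 library gave 285 (without control 2) to 637 (without Rx-Dicer 1) called genes, 172 to 429 higher, 84 to 371 lower, 1 to 3 members higher, a member median of 0.060 (without Rx-Dicer 1) to 0.24 (without Rx-Dicer 3), 4 (without control 2) to 10 partner genes, and a Dicer1 log2 fold change of -0.47 (without Rx-Dicer 2, DESeq2 adjusted p 8.81e-04) to -0.16. Why they shifted was not tested.

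Replicate numbers are shared between the groups. Deviations from the group means had correlations of 0.17, 0.03 and -0.13 for samples of the same number, and of -0.17 to 0.16 for the other pairs. With 3 samples per group these values cannot decide whether the numbers pair samples. The study compared mutants with control littermates, and the labels name no litters. With the replicate number as a block 314 genes were called, 87 lower, and 1 member, Itgb8, while Itga2 had a DESeq2 adjusted p of 0.0554. Block and length and GC correction together called 292 genes, 179 higher and 113 lower, and 0 members. At these depths Itgb6, Itgb7, Lama3 and Lamb3 had low counts, and what limits the calls of the other members was not tested. Counting error was not separated from the spread between samples.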
